A study of Drosophila melanogaster with 6 samples.

Results

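The genes described here encode the contractile apparatus of muscle: the myosin genes Mhc, Mlc1 and Mlc2, the actin genes Act57B, Act87E and Act88F, the tropomyosin gene Tm2, the troponin genes up and wupA, and sls, which encodes the titin-like proteins of the Z-disc. They were followed in the wing imaginal disc of Drosophila melanogaster, the larval epithelial sac that forms the wing, the hinge and the dorsal thorax. Every probe set whose single annotated gene symbol was one of these 10 names was taken, which gave 11 of the 13966 fly probe sets on the array, for 7 of the genes. No probe set naming Mhc, Act57B or wupA alone was found in the values used here, so these 3 genes were not analysed here.

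Both groups were dissected from wild-type discs of the third larval instar, and neither carried a mutation or a treatment. Body wall fragments, the part that forms the thorax, were measured on 3 Affymetrix arrays, and wing/hinge fragments on another 3. The labels call the arrays of a fragment biological replicates. They give body wall 1 and body wall 2 related aliases (NOTUM 2 and NOTUM 2R), so whether these came from separate dissections is not known. Both were counted as samples in the tests, and their average was used as an alternative. The labels give no further detail on separate dissections, so the tests measure the spread between the arrays. The labels do not say whether discs were pooled, nor name the fly strain or the sex of the larvae. In whole fragments, fewer cells of a type and less RNA per cell cannot be told apart.

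In a muscle cell, myosin thick filaments pull on actin thin filaments, and the force is passed on through the Z-disc, where thin filaments are anchored. Each myosin heavy chain carries an essential and a regulatory light chain. On the thin filament, tropomyosin and the troponin complex make the contraction depend on calcium. In the late larval disc the future flight muscles exist as adult muscle precursors, undifferentiated cells under the notum epithelium, which form muscle fibres and their contractile proteins only during pupal life. The larva's own body wall muscles, which do contract, are not part of the disc.

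Markers of each fragment and of muscle precursors were listed with earlier results of these data known. Their calls therefore describe the fragments and are no independent check of the dissection. Of the body wall list, limma called 5 of 6 probe sets toward body wall, for pnr, eyg, B-H1, sr and tup. Of the wing/hinge list it called 7 of 12 toward wing/hinge, for nub, pdm2, Dll, dve, bi and zfh2, and the rest of both lists did not pass. Among all probe sets tested, the shares called were 0.59% toward body wall and 0.325% toward wing/hinge. The GATA factor gene pnr, which patterns the dorsal thorax, had a mean intensity of 497 ± 143 on body wall arrays and 15.1 ± 8.39 on wing/hinge arrays (SD, n = 3 arrays each). The wing pouch gene nub averaged 94.0 ± 9.12 on body wall arrays and 2039 ± 779 on wing/hinge arrays at its brightest probe set (SD, n = 3 arrays each). The muscle precursor gene twi, which encodes a mesodermal transcription factor, averaged 763 ± 20.8 on body wall arrays and 29.2 ± 9.08 on wing/hinge arrays (SD, n = 3 arrays each) and was called, as were Him, htl, zfh1 and kon. The muscle precursor list, from which these names come, had 5 of 12 tested probe sets called toward body wall and none toward wing/hinge (limma, adjusted p under 0.05), with a median log2 difference, body wall minus wing/hinge, of 0.85. The called ones differed by 1.79 to 4.75. Among the 7 uncalled ones 5 were negative, led by sns at 146839_at (-0.95), kirre (-0.77) and Ama (-0.77). The other uncalled ones were positive, CadN at 1.25 and the brightest sns probe set, 146838_at, at 0.46. The summed intensity of the whole list was 4822 to 5191 on body wall arrays and 3752 to 4200 on wing/hinge arrays. Ama alone averaged 1711 on body wall arrays and 2919 on wing/hinge arrays, a large part of these sums.

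Levels were read against the 23 control probe sets designed for RNA of bacteria, mouse or yeast, which should find no target in a fly sample. Of their 138 values, 95% lay under 55.1 and the highest was 91.8. These marks pool the 6 arrays, whose controls differed. Array by array, the 95th percentile ran from 25.1 (wing/hinge 1) to 89.1 (body wall 1), and the highest value from 39.8 to 91.8. The floor was 20.4, the 20th percentile of all fly probe sets, and lower values were raised to it before the log2 step. By these marks 2 of the 11 contractile probe sets, those of Mlc2 and Act87E, stood above the highest control value on all 6 arrays. That is 18.2% of them, against 41.5% of all fly probe sets. A further 6 of the 11, or 54.5%, did not pass 55.1 on any array, against 20.4% of all fly probe sets. On single arrays, between 2 and 5 of the 11 lay above 55.1. The remaining 3 probe sets, of Tm2, up and sls, passed it on some arrays and not on others.

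**Figure D1:**
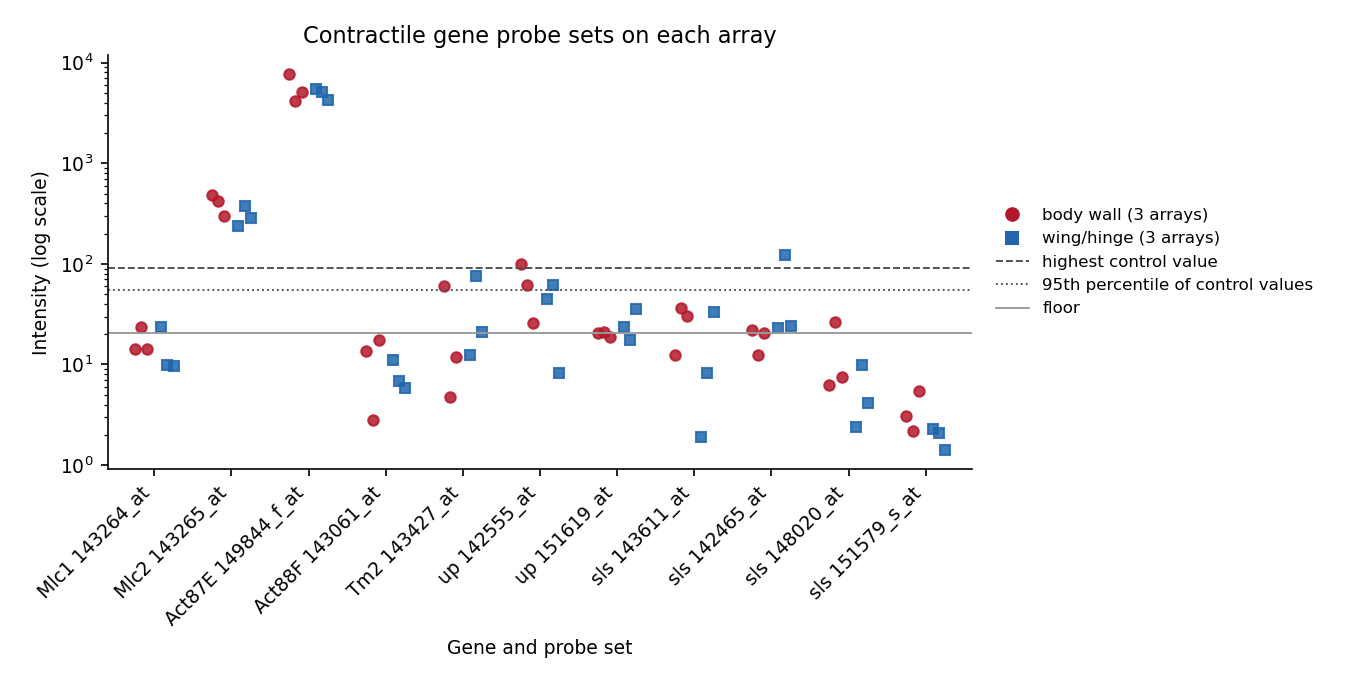
Intensity (log scale) of the 11 contractile probe sets on each array, with body wall as circles and wing/hinge as squares and 1 point per array. The dashed and dotted lines are the highest value (91.8) and the 95th percentile (55.1) of the control probe sets, and the grey line is the floor (20.4). Only Mlc2 and Act87E lie above the dashed line on all 6 arrays.

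No contractile probe set passed the test between the fragments. The test took in probe sets with 3 or more of their 6 values above the floor, which 7 of the 11 had, for Mlc2, Act87E, Tm2, up and sls. With limma, and p-values adjusted by Benjamini-Hochberg over the 11698 probe sets that entered the test, 0 of these 7 had an adjusted p under 0.05, where 0.915% of all tested probe sets did. At an unadjusted limma p under 0.05 the count was also 0 of 7, where 8.97% of all tested passed. Their log2 differences, body wall minus wing/hinge, ran from -0.97 to 0.50 with 4 positive and 3 negative. The median was 0.15, against 0.03 over all probe sets tested. With so few members and wide intervals, these values do not show that the levels were equal.

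Mlc2 encodes the regulatory light chain of muscle myosin. Its intensity was 488.1, 419.2 and 302.3 on body wall arrays 1 to 3, against 237.0, 376.4 and 287.4 on wing/hinge arrays 1 to 3. The groups overlapped, as wing/hinge 2 lay above body wall 3. Mlc2 averaged 403 ± 93.9 on body wall arrays and 300.3 ± 70.6 on wing/hinge arrays (SD, n = 3 arrays each), and its log2 difference was 0.42 (SE 0.29; limma adjusted p = 0.772). The 95% confidence interval of that difference ran from -0.27 to 1.12, that is from a 0.83-fold to a 2.17-fold ratio of body wall to wing/hinge. Mlc2 was thus measurable in both fragments. A body wall excess of more than about that upper ratio lay outside the interval, while twi differed by 4.75 on the log2 scale (95% confidence interval 4.10 to 5.40).

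The partner light chain gene Mlc1, which encodes the essential light chain, was near background. Its values were 14.4, 23.4 and 14.1 in body wall and 23.6, 9.9 and 9.7 in wing/hinge. It passed the floor on 2 arrays, 1 of each fragment, and was not tested.

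Act87E encodes a muscle actin. Its probe set was far above the control values on every array. It carries the suffix f, which in the manufacturer's naming marks probes that can match a family of related sequences. The actin genes of the fly are nearly identical in their coding parts, so RNA of other actins, the cytoplasmic ones included, may contribute to this value, and the array gives no way to separate them. Body wall arrays measured 7724.3, 4124.1 and 5102.6, against 5422.7, 5176.1 and 4278.5 on wing/hinge arrays. The wing/hinge values lay within the range of the body wall values. The log2 difference was 0.15 (SE 0.30; limma adjusted p = 0.932), with a 95% confidence interval from -0.56 to 0.85. It rested on body wall 1, without which it turned to -0.11.

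A second actin probe set with the same suffix, that of Act79B, a muscle actin outside the members, did not pass the test either. It averaged 1478 ± 153 on body wall arrays and 1366 ± 186 on wing/hinge arrays (SD, n = 3 arrays each), with a log2 difference of 0.12 (limma adjusted p = 0.931). The flight muscle actin gene Act88F has a probe set without this suffix. Act88F gave 13.5, 2.8 and 17.5 in body wall and 11.0, 6.8 and 5.8 in wing/hinge. It was below the floor on all 6 arrays, so no ratio is given.

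Tm2 encodes a muscle tropomyosin. Its intensity was 60.8, 4.8 and 12.0 on body wall arrays 1 to 3, against 12.5, 75.1 and 20.9 on wing/hinge arrays 1 to 3. Only body wall 1 and wing/hinge 2 lay above 55.1, and neither reached the highest control value of all arrays. Against the controls of the same array, the body wall 1 value lay under their 95th percentile (89.1). The wing/hinge 2 value lay above their highest value (66.1). Its log2 difference was -0.11 (SE 0.65; limma adjusted p = 0.981), and it turned to 0.51 without wing/hinge 2 and to 0.15 without body wall 2 or without body wall 3. With a block for the split of arrays by brightest values (given after sls) it was 0.30, also not called. Its 95% confidence interval, from -1.67 to 1.44, was the widest of the 7.

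The troponin T gene up had 2 probe sets, which gave opposite signs without passing the test. The brighter one (142555_at) measured 98.8, 61.8 and 25.7 in body wall, against 44.5, 61.5 and 8.3 in wing/hinge. Body wall 1 alone lay above the highest control value, and the groups overlapped. The log2 difference was 0.50 (SE 0.60; limma adjusted p = 0.876), with a range from 0.04 to 1.03 when single arrays were left out. The dimmer one (151619_at) ranged from 18.7 to 21.0 in body wall and from 17.4 to 35.4 in wing/hinge, around the floor on every array. Its log2 difference was -0.32 (SE 0.27; limma adjusted p = 0.819).

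Of the 4 probe sets of sls, 2 were tested. At 142465_at the body wall values were 22.0, 12.5 and 20.8 and the wing/hinge values 23.3, 123.0 and 24.4. Wing/hinge 2 stood above every other array here, and 5 of the 6 values lay near the floor. This was the only tested contractile probe set whose groups did not overlap, 1 of 7, where 15.0% of all tested probe sets had groups apart. The log2 difference was -0.97 (SE 0.64; limma adjusted p = 0.76), and -0.18 when wing/hinge 2 was left out. At 143611_at, sls measured 12.4, 36.1 and 30.6 in body wall and 1.9, 8.2 and 33.0 in wing/hinge (log2 difference 0.24, SE 0.33; limma adjusted p = 0.895). With the floor halved, the log2 difference there was 0.67 (SE 0.62). The other two, 148020_at and 151579_s_at, lay under 55.1 everywhere, with highest values of 26.2 and 5.5, both in body wall. The tested probe sets of this gene thus had opposite signs. Of all values of the 4 probe sets, only that of wing/hinge 2 at 142465_at lay above the highest control value.

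**Figure D2:**
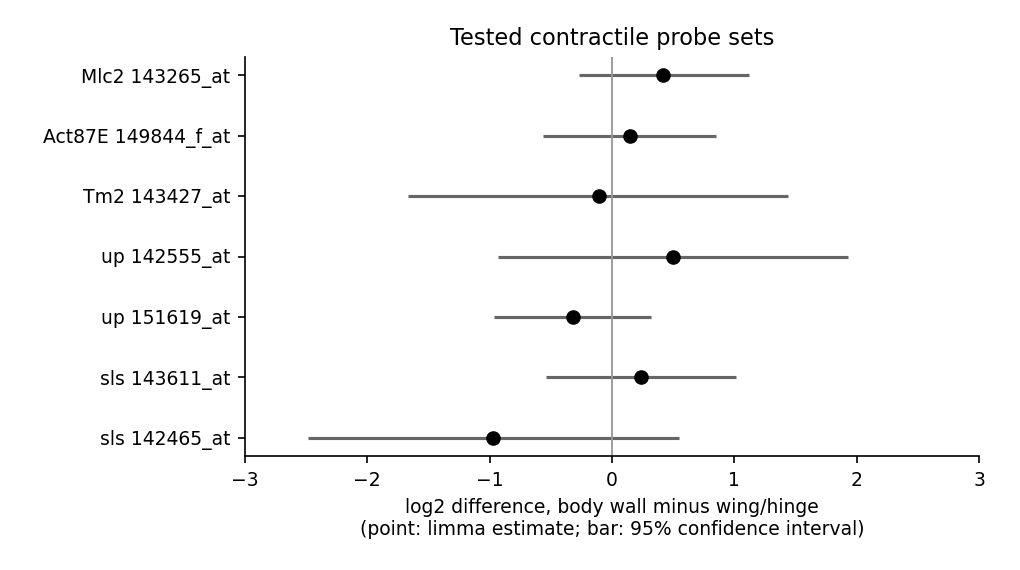
Log2 difference, body wall minus wing/hinge, of the 7 tested contractile probe sets, with the limma estimate as a point and its 95% confidence interval as a bar. Every interval includes 0, and those of Mlc2 and Act87E run from -0.27 to 1.12 and from -0.56 to 0.85.

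The arrays split by their brightest values into body wall 1, wing/hinge 1 and wing/hinge 2, with values above 20000, and the other 3. The actin control had a ratio of 3' to 5' signal of 1.92 to 2.98 on the first set and of 1.12 to 1.28 on the second. The split is seen only in the data, and each set holds both fragments. For Mlc2 the log2 difference was 0.71 within the bright set and 0.31 within the other. For the brighter probe set of up these values were 0.92 and 0.97, and for Act87E 0.54 and 0.10. At 142465_at of sls they were -1.28 and -0.24, at 143611_at 0.00 and 0.01, at the dimmer probe set of up -0.10 and -0.77, and for Tm2 0.64 and -0.03. The 0.00 at 143611_at was fixed by the floor, as all its values in the bright set lay under it. For Tm2, the -0.03 likewise set body wall values raised to the floor against a wing/hinge value just above it. With the split as a block, limma gave 0.51 for Mlc2, 0.94 for up at 142555_at and 0.32 for Act87E, with adjusted p = 0.662, 0.539 and 0.728. For sls at 142465_at and 143611_at it gave -0.76 and 0.01, and for up at 151619_at -0.44, with adjusted p = 0.775, 0.998 and 0.652. Body wall 1 held the highest value of 3 of the 11 contractile probe sets, body wall 2, body wall 3 and wing/hinge 2 of 2 each, and the other arrays of 1 each.

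The profiles over the 6 arrays were compared by distance, as a description with no test. After each probe set's log2 values were centred, the mean absolute distance from the median profile of the 7 tested was 0.129 for Mlc2 and 0.16 for Act87E. For the others, most of whose values lay within the range of the control probe sets, it ran from 0.393 for up at 151619_at to 0.626 for sls at 142465_at. The non-member probe sets nearest to that median profile over the 6 arrays were those of Cyp9b2 (distance 0.042), Srx (0.043), CG8736 (0.061), Vajk2 (0.063) and pAbp (0.068). None of these belongs to the muscle lists used here.

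A list of 29 other contractile and sarcomere genes had 44 probe sets, of which 26 were tested, for 15 genes. Of these 26, limma called 2 toward body wall and none toward wing/hinge at an adjusted p under 0.05, which left 24 uncalled. Over all tested probe sets, 0.59% were called toward body wall and 0.325% toward wing/hinge. The list median was 0.17, and 5 of the 26 had groups apart, where 15.0% of all tested did. The troponin C genes TpnC41C and TpnC4, the twitchin-related gene bt and the LIM protein genes Mlp60A and Mlp84B did not pass 55.1 on any array. On all 6 arrays 12 of the 44 probe sets passed it, or 27.3%, against 48.8% of all fly probe sets. Among them were Actn, which encodes the actin cross-linker alpha-actinin, and SERCA, which encodes a calcium pump of the endoplasmic reticulum. Both are also active outside muscle. The brightest was that of Argk1 at 152383_at, which averaged 3933.9 on body wall arrays and 5535.5 on wing/hinge arrays and was not called. The rest were of Act79B, Zasp52, Fhos, Obsc, zormin and tmod.

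Strn-Mlck, which encodes a myosin light chain kinase related to titin, was 1 of the 2 called. At 143736_at it measured 141.0, 214.3 and 203.6 in body wall, against 21.1, 43.6 and 15.6 in wing/hinge. All 3 body wall values lay above the highest control value and all 3 wing/hinge values under 55.1. The log2 difference was 2.79 (SE 0.37; limma adjusted p = 0.0259). The call held without wing/hinge 2 (limma adjusted p = 0.0267) and ended without any other array (adjusted p 0.0692 to 0.12), and with a block for the brightness split (0.0765). It also ended with body wall 1 and 2 averaged (limma adjusted p = 0.0789). The log2 difference was 2.59 to 3.14 with single arrays left out, and 2.79 with the block. Over 16 alternatives its adjusted p ran from 0.00539 to 0.12, and 6 of them kept the call. A further probe set, 152599_at, gave 0.90 and was not called (limma adjusted p = 0.727). Another, 147270_at, lay under the floor at 12.3 on each body wall array and measured 72.3, 40.5 and 16.3 in wing/hinge, and was not tested.

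The Z-disc gene zormin was the other. At 152251_at it measured 106.3, 100.8 and 110.8 in body wall, against 22.4, 31.3 and 28.8 in wing/hinge. The body wall values lay just above the highest control value, and the groups were far apart for their spread. The log2 difference was 1.96 (SE 0.23; limma adjusted p = 0.018). The call ended when any array was left out (adjusted p 0.0584 to 0.0893) and with that block (0.0574). It also ended with body wall 1 and 2 averaged (limma adjusted p = 0.0728). Over 17 alternatives the adjusted p of this probe set ran from 0.0103 to 0.134. The log2 difference was 1.82 to 2.06 with single arrays left out and 1.94 with the block. The brightest zormin probe set, 148024_at, averaged 270.2 ± 99.2 on body wall arrays and 268 ± 122 on wing/hinge arrays (SD, n = 3 arrays each), with a log2 difference of 0.03 (limma adjusted p = 0.994). Of the dimmer ones, 2 gave 0.29 and -0.27 without passing, and the last was not tested. For both genes, then, the difference was seen at 1 probe set and not at every probe set of the same name.

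**Figure D3:**
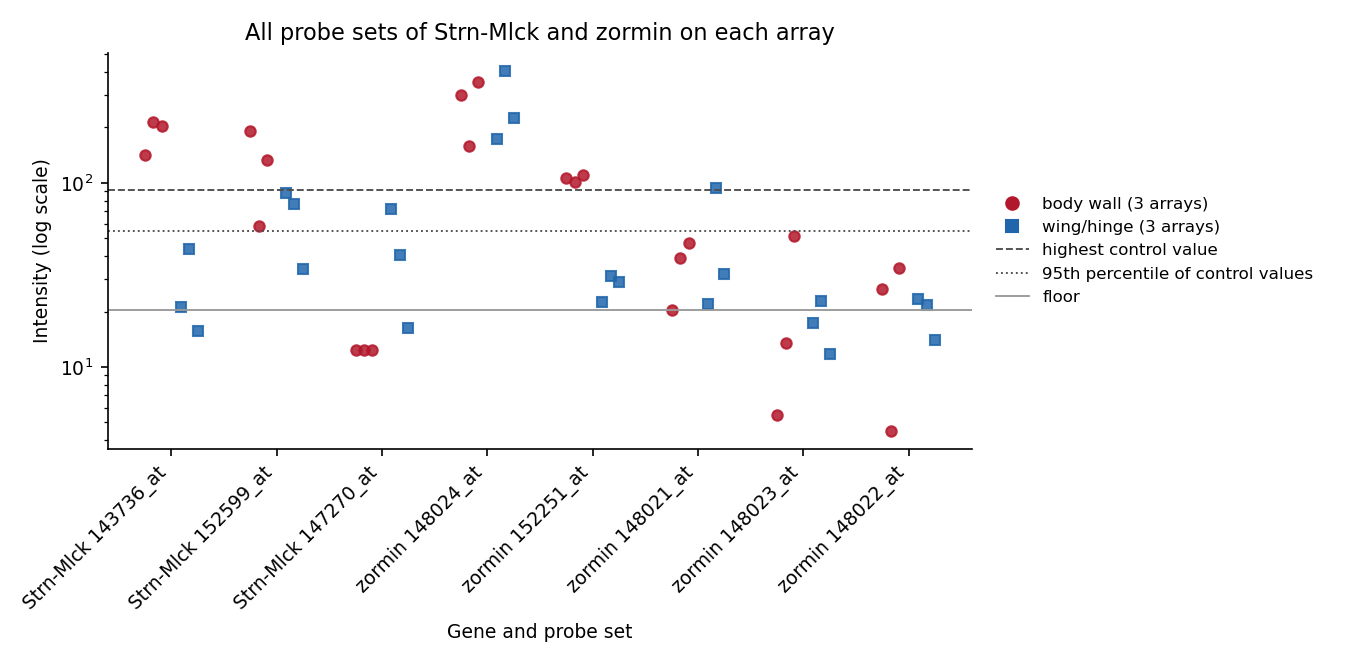
Intensity (log scale) of all 8 probe sets of Strn-Mlck and zormin on each array, body wall as circles and wing/hinge as squares, with the control and floor lines at 91.8, 55.1 and 20.4. At 143736_at and 152251_at the 3 body wall points lie above the dashed line and the 3 wing/hinge points under the dotted line, while the other probe sets of these genes do not show this.

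No other probe set of that list passed. Msp300, which encodes a protein that anchors nuclei in muscle, gave 1.21 (SE 0.60; limma adjusted p = 0.652) at 141786_at. That difference was 2.08 within the bright array set and 0.14 within the other. The Msp300 probe sets 143581_at and 145812_at lay under the floor on all 6 arrays. The troponin C gene TpnC73F, above 55.1 on 2 arrays, gave 0.87 (SE 0.40; limma adjusted p = 0.594). The flight muscle thick filament gene fln, not above 55.1 on any array, gave 0.67. Obsc, a titin-related gene, gave -0.61 at 152806_at (SE 0.75), with -2.05 within the bright array set and 1.14 within the other. Its other tested probe set, 147826_at, lay above the highest control value on all 6 arrays and gave 0.34. The pointed end capping gene tmod had its largest intensity at 152898_at, with 1576 ± 69.1 on body wall arrays and 2366 ± 160.2 on wing/hinge arrays (SD, n = 3 arrays each). Its groups were apart there, and the log2 difference was -0.58 (SE 0.21; limma adjusted p = 0.429).

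Genes of the general, non-muscle cytoskeleton were measured in both fragments without a call. From the list of these counterparts 7 of 14 genes had a probe set, and all 7 stood above the highest control value on all 6 arrays. No probe set naming the cytoplasmic actin genes Act5C and Act42A, the non-muscle myosin genes zip and sqh, or Tm1 alone was found. Of the myosin, actin and tropomyosin genes of that list, only Mlc-c was thus measured, beside genes of actin-regulating proteins. None of the 7 was called by limma, 0 had an unadjusted p under 0.05, and their median log2 difference was -0.01. The largest differences were 0.34 for Mlc-c, which encodes the light chain of non-muscle myosin, 0.27 for the profilin gene chic, and -0.19 for cpa, which encodes a subunit of actin capping protein.

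**Figure D4:**
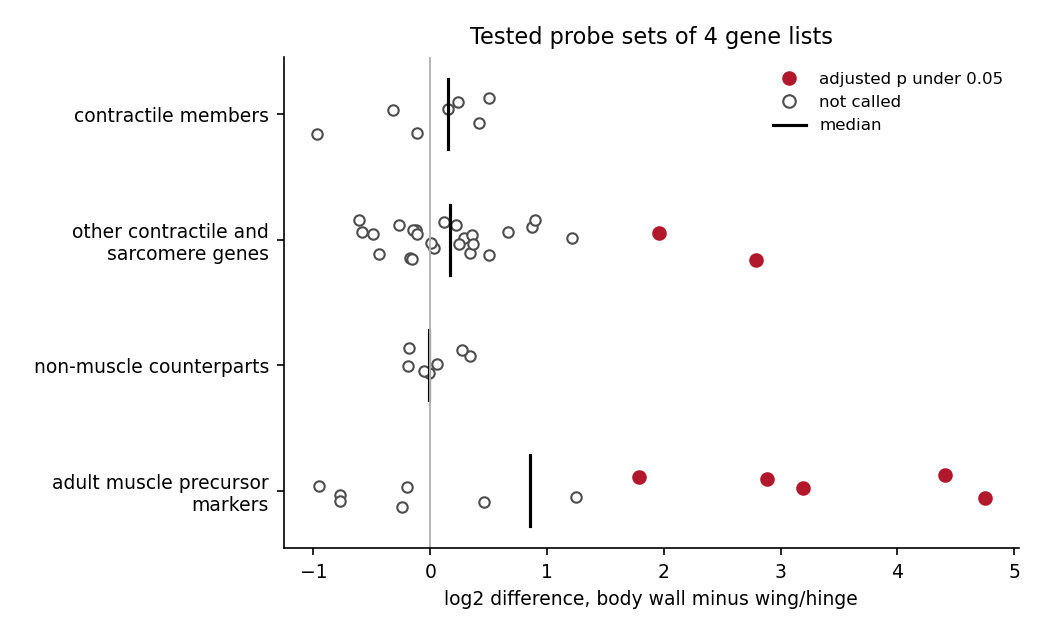
Log2 difference, body wall minus wing/hinge, of the tested probe sets of 4 lists, with called probe sets (limma, adjusted p under 0.05) filled and the list median as a vertical bar. The 7 contractile members lie between -0.97 and 0.50, 2 of the 26 other contractile probe sets and 5 of the 12 muscle precursor probe sets are called, and the vertical spread of the points carries no value.

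Factors of muscle differentiation were measured at 6 probe sets, of which 4 were tested and none was called by limma, with 2 at an unadjusted p under 0.05. The homeobox gene lms differed by 1.43 (SE 0.48; limma adjusted p = 0.405), and the MyoD-related gene nau by 1.15 (SE 0.41; limma adjusted p = 0.443). For nau the values were 64.0, 72.1 and 51.0 in body wall and 8.8, 11.4 and 51.6 in wing/hinge, all under the highest control value. The third named by size, the homeobox gene lbe, gave -0.23.

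Markers of larval muscle and its synapses had 11 probe sets, of which 8 were tested and 0 called by limma (1 at an unadjusted p under 0.05). Their summed intensity ran from 397 to 661 on body wall arrays and from 357 to 513 on wing/hinge arrays. The glutamate receptor gene GluRIID stayed under the floor on all 6 arrays, and no probe set of the list passed 55.1 on all of them. Mp20, a calponin-like muscle protein gene, measured 77.3, 103.0 and 175.5 in body wall and 134.7, 198.8 and 27.8 in wing/hinge. The differences largest in size were those of 3 probe sets of the potassium channel gene Sh, at 1.02, 0.97 and 0.89, none called. The value of 0.97, at 151483_at, was 2.55 within the bright array set and -0.49 within the other. A further tested Sh probe set, 145271_at, gave 0.01.

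Some lists of markers of other tissues had higher sums on every body wall array than on any wing/hinge array. Haemocyte markers summed to between 1464 and 1721 in body wall and between 383 and 481 in wing/hinge, with 1 of 6 tested called, Col4a1 (log2 difference 2.31, limma adjusted p = 0.0149). The other members of that list with large differences, vkg and Hml, gave 2.82 and 0.82 and were not called, and NimC1 and lz were under the floor on all 6 arrays. The haemocyte sums rested largely on Col4a1 and vkg, with means of 867 and 390 on body wall arrays and 176 and 68.2 on wing/hinge arrays. Pxn, eater and srp gave 0.67, 0.66 and 0.7 and were not called. The groups of Hml, Pxn and eater overlapped, while those of srp did not. Fat body markers summed to between 974 and 1158 in body wall and between 324 and 785 in wing/hinge, with 0 of 5 called by limma (2 at an unadjusted p under 0.05), and Fbp1, Lsp2 and Fbp2 gave 1.81, 1.19 and 0.79. The probe sets of apolpp gave 0.39 at 142356_at and -0.46 at 151538_s_at. Tracheal markers, with 0 of 7 called by limma (3 at an unadjusted p under 0.05), summed to between 12376 and 13921 in body wall and between 11046 and 13309 in wing/hinge. Their largest differences were 1.82 for btl and 0.97 and 0.78 at the probe sets of serp. In the other direction went pio (-0.44), whose groups were apart, and Osi24 (-0.26). The part of these tissues in the values of Strn-Mlck and zormin was not tested.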

How the data were processed

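The deposited table gives linear-scale intensities from Affymetrix Drosophila arrays, with 1 value for each probe set on each array. Per the labels, targets were made from total RNA by the manufacturer's procedure. The trimmed mean (2% off each end) lay between 300.0 and 300.1 for all 6 arrays. The intensities were therefore used as the authors scaled them. The summary and scaling software is not given in the sources used here. Genes were named through the platform's annotation (12443 of 13966 fly probe sets with 1 symbol, 327 with several, 1196 with none).

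Values under 20.4 were set to it, and probe sets above it on at least 3 of 6 arrays were tested with lmFit and eBayes of limma 3.58.1 in R 4.3.3 (two-sided, all 6 arrays, no block), with Benjamini-Hochberg adjustment over 11698 probe sets and a threshold of 0.05. The fit was tested on simulated data. Alternatives covered the floor, filter, transform, normalization, variance model, blocks, averaging of body wall 1 and 2 (which have related aliases in the labels), and each array left out. Precision is limited by the number of arrays. The members and lists were chosen with earlier results of these data known. Named were all member probe sets, called probe sets of the lists, the 3 largest differences per list and the 5 nearest profiles. Act79B, Actn, SERCA, TpnC73F, fln, Obsc, tmod, Mp20, sns, kirre, Ama, Pxn, eater, srp, further probe sets of named genes and genes under the control level were named after their values were seen. So were Argk1, Zasp52, Fhos, CadN, apolpp, pio and Osi24. Some listed genes without a probe set were also named.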

Additional observations from a re-analysis of the deposited data

How the results depend on the processing

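No contractile probe set was called by limma under any of 17 alternatives (adjusted p from 0.539 upward), and 101 of 106 values kept their sign. The 2 changes of filter alone, eBayes with trend and robust, and the replicate block leave the log2 difference as it was. Signs could therefore not turn in those fits, and the other fits reuse most of the same values. Tm2 gave 0.30 with the arrays blocked by brightest values and -0.64 to 0.51 with single arrays left out, and Act87E -0.11 to 0.35. The sizes and standard errors of dim probe sets depended on the floor. With the floor halved, Tm2 gave -0.47 (SE 0.91), sls at 143611_at 0.67 (SE 0.62) and up at 142555_at 0.83 (SE 0.8). Mlc2 and Act87E stayed at 0.42 and 0.15 there. Probe sets above control values on all 6 arrays stayed at 2 of 11 with the highest control value or quantile normalization. Of the other contractile probe sets, 1 was called instead of 2 with the floor halved, the floor at the 95th percentile of control values, no filter, values above the floor on all 6 arrays, or eBayes with trend and robust, and 0 with either block or body wall 1 and 2 averaged, while leaving out single arrays left 0 to 1. Over all probe sets the 107 calls became 161 with trend and robust. They became 10 with the replicate block, 52 with the block by brightest values, 49 with body wall 1 and 2 averaged and 34 to 47 with single arrays left out, all of which leave fewer degrees of freedom. The cause was not tested. Whether same-numbered arrays were paired is not known. Their deviations correlated at 0.06, -0.156 and 0.193, and not every array correlated best with its own number, though body wall 3 and wing/hinge 3 did. With 3 arrays for each fragment, these correlations cannot decide it. Probe sets near the floor, as most of these are, limit what could be detected.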
